A study of Mus musculus with 6 samples.

Results

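The mucin-type glycosyltransferases are the Golgi enzymes that build O-linked sugar chains on mucins. They were taken here as all genes of the Galnt, B3gnt, B3galt, B4galt, B4galnt, St3gal, St6gal, St6galnac, Fut and Gcnt families by mouse symbol, plus C1galt1 and its chaperone gene C1galt1c1, with at least 30 counts summed over the 6 samples. Of 37991 genes in the count tables, 72 had such a symbol and 54 of these reached 30 counts. Just inside the minimum were B4galt2 with 36 summed counts, B3galt1 with 37 and Galnt2 with 38, and just outside it were B3gnt9, Fut9 and Galnt18 with 28 each. The other 15 genes below it had 0 to 22 summed counts, among them St6galnac1, which makes the sialyl-Tn antigen, with 1 count, and B3gnt4 and Galntl5, which had 0 counts.

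RNA sequencing covered 3 HBUS animals, mice 1119, 1192 and 1199, with tissue taken after 60 weeks, giving 1 serrated polyp of the cecum and 1 piece of the normal distal cecum around it per animal. HBUS animals express, from transgenes in the gut epithelium, HB-EGF, a ligand of the EGF receptor, and US28, a chemokine receptor of a herpesvirus. Both tissues therefore carry the transgenes, and mice without them were not analysed here. Serrated polyps are lesions with a saw-toothed crypt outline. Setting each polyp beside its own cecum asks what distinguishes lesion from neighbouring tissue.

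O-glycan synthesis starts when a GalNAc transferase of the Galnt family attaches N-acetylgalactosamine to a serine or threonine. C1galt1 then adds galactose to form core 1, Gcnt enzymes add a branch to form core 2 or core 4, and B3gnt6 forms core 3. Galactosyl- and N-acetylglucosaminyltransferases extend these cores, and sialic acid, fucose or a further N-acetylgalactosamine closes the chain. In the colon these chains cover MUC2, the gel-forming mucin of goblet cells. Several genes in the group are better known for other substrates, such as Fut8 and St6gal1 for N-glycans, St3gal5 and B4galt5 for glycolipids and B4galt7 and B3galt6 for the linker of proteoglycans.

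Library totals ran from 6632645 to 8553952 counts in polyps and from 7496143 to 13350119 in surrounding cecum. The mitochondrial rRNAs took 46.35% to 75.3% of them, and the 54 genes together held 9643 to 27993 counts per library, 0.489% to 0.573% of the counts of all other genes. The polyp library of mouse 1192 and the surrounding library of mouse 1199 stood apart in library composition, with normalization factors of 1.43 and 0.593 against 0.973 to 1.08 in the other 4. Levels are in CPM, read counts scaled to library size after normalization for library composition, given as mean ± SD over 3 mice. Levels of different genes are compared in CPM per kb of exonic length. The samples were whole tissue, so fewer cells of a type and less RNA per cell cannot be told apart.

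In polyps, transcripts of 4 of the glycosyltransferase genes rose relative to the cecum around the polyp. They were the core 2 branching enzyme genes Gcnt4 and Gcnt1, the sialyltransferase gene St3gal6 and the initiating GalNAc transferase gene Galnt3. The rises were 4.00-fold, 3.91-fold, 2.98-fold and 2.19-fold. None of the genes fell under the same test (paired quasi-likelihood test of edgeR, p under 0.05 after Benjamini-Hochberg adjustment over all 10960 genes tested). DESeq2 called 3 of them lower, B3galt5, B4galnt2 and Gcnt3. At an unadjusted p under 0.05 there were 10 with a positive and 4 with a negative fold change, 29.2% of those tested, against 14.6% of all genes, of which 8.29% were positive and 6.26% negative. Of the 54 genes, 48 had enough counts to be tested, and the 4 that rose were 8.33% of these 48. None of the 48 was above the filter's cutoff of 1.17 CPM in all 3 samples of 1 tissue and 0 of the other. Over all genes tested, 1.72% were called higher in polyps, 1.04% lower and 2.76% in either direction. The median log2 fold change of the 48 was 0.13, against -0.02 over all genes tested, with 28 positive and 20 negative values. Their median differences in mice 1119, 1192 and 1199 were -0.05, 0.30 and 0.13 on the log2 scale.

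**Figure D1:**
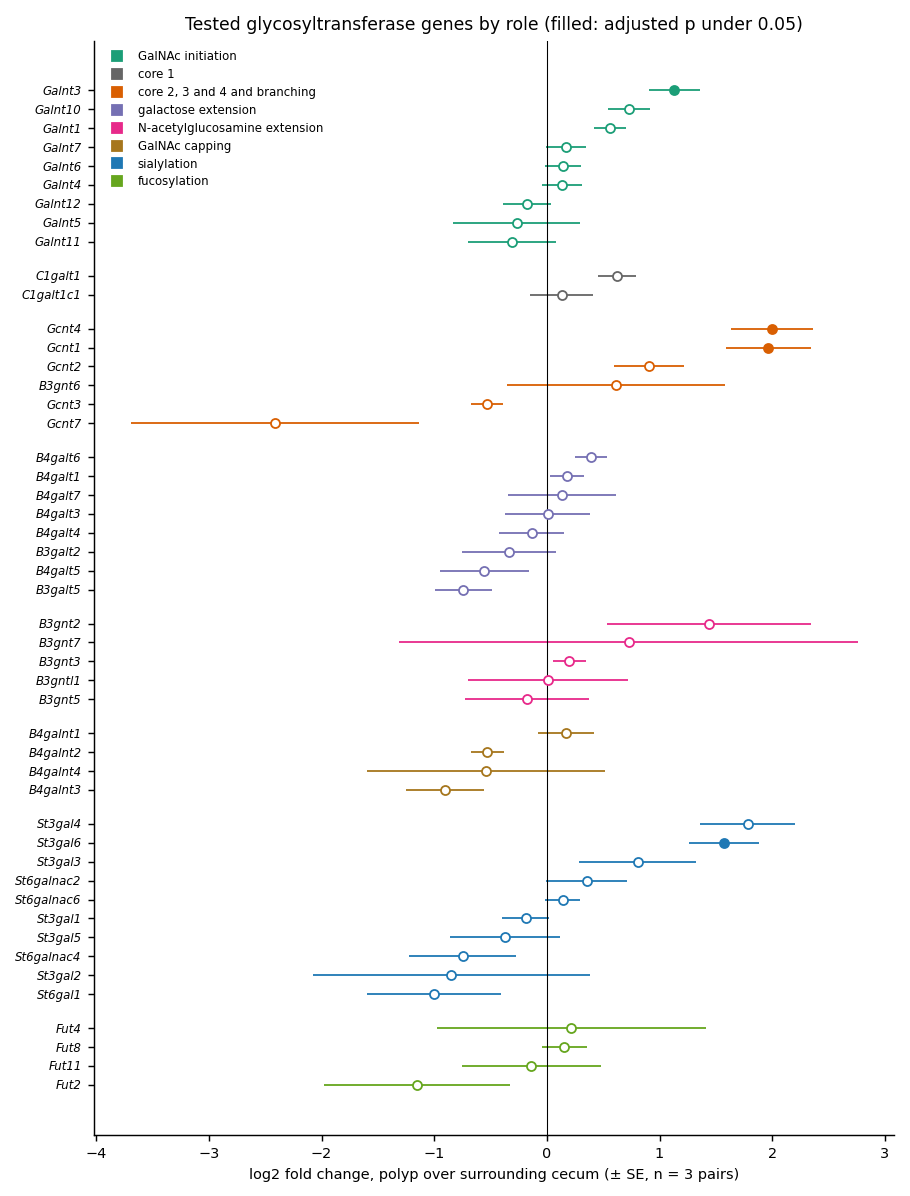
Log2 fold change of polyp over surrounding cecum for the 48 tested glycosyltransferase genes, grouped and coloured by role, with standard errors from the edgeR fit (n = 3 pairs). Filled circles mark the 4 genes with an adjusted p under 0.05, which are Galnt3, Gcnt4, Gcnt1 and St3gal6, and the genes of each role lie on both sides of 0 except in the core 1 group.

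Without the pairing by mouse, 1 of the 4 genes, Gcnt4, passed (adjusted p = 0.036). The genes called higher were St3gal4 alone without mouse 1119, Gcnt4 alone without mouse 1192 and Galnt3 alone without mouse 1199. The direction of the 4 genes was the same in each mouse and in each of these fits. Of the 48 genes, 20 differed in the same direction in all 3 mice (41.7%, against 38.3% of all genes tested). The polyp range lay above the surrounding range for 9 of the 48 and below it for 3, which is 18.8% and 6.25%, against 9.84% and 8.58% of all genes tested. The 9 include B3gnt2, above the filter's cutoff in 3 polyps but only 1 surrounding sample. The 3 include St6gal1, above it in 2 polyps and 3 surrounding samples. These 2 reached the 3 samples through the tissue where they were higher.

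The Gcnt genes encode the enzymes that attach a branching N-acetylglucosamine, and 2 of the 5 Gcnt genes, Gcnt4 and Gcnt1, rose. Gcnt4 (ENSMUSG00000091387), a core 2 enzyme gene, had 12.4, 10.1 and 9.10 CPM in the polyps of mice 1119, 1192 and 1199, against 2.84, 2.21 and 2.93 CPM in the surrounding tissue. Every polyp was above every surrounding sample. Its mean was 10.6 ± 1.72 CPM in polyps and 2.66 ± 0.394 CPM in surrounding tissue, a log2 fold change of 2.00 ± 0.36 (adjusted p = 0.0264). Without mouse 1119 the adjusted p of Gcnt4 was 0.171, and without mouse 1199 it was 0.141, at log2 fold changes of 1.93 and 2.14.

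Gcnt1 (ENSMUSG00000038843), the core 2 enzyme gene best known from leukocytes, had 5.44, 11.8 and 11.1 CPM in the polyps of mice 1119, 1192 and 1199, against 1.33, 2.85 and 3.16 CPM in surrounding tissue. The groups did not overlap, and mouse 1119 had the lowest value in both tissues. The mean was 9.46 ± 3.50 CPM in polyps and 2.44 ± 0.98 CPM in surrounding tissue, a log2 fold change of 1.97 ± 0.38 (adjusted p = 0.0334). Per mouse the log2 differences of Gcnt1 were 1.88, 1.98 and 1.75. Its adjusted p was 0.133, 0.0633 and 0.225 with mouse 1119, 1192 or 1199 left out in turn, at log2 fold changes of 1.94, 1.88 and 2.02, and 0.0972 unpaired.

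Gcnt3 (ENSMUSG00000032226), the mucin-type branching enzyme gene of the gut, whose product makes core 2, core 4 and I branches, was the second most abundant of the 54 genes per kb. It had 161.5, 200.1 and 175.6 CPM in the polyps of mice 1119, 1192 and 1199, against 204.2, 286.7 and 293.9 CPM in surrounding tissue. Every polyp was below every surrounding sample, yet the test was not passed (log2 fold change -0.53 ± 0.14, adjusted p = 0.102). Gcnt3 did pass as lower with DESeq2 (adjusted p = 0.029), with a minimum mean of 5 CPM (0.0441) and without a filter on low counts (0.0283). Its adjusted p over the alternatives tried ran from 0.0283 to 0.427.

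Within each sample, Gcnt1 and Gcnt4 together made up 8.29%, 8.00% and 8.34% of the summed CPM per kb of Gcnt1, Gcnt3 and Gcnt4 in the polyps of mice 1119, 1192 and 1199. In the surrounding tissue they made up 1.63%, 1.37% and 1.62%. This share was 8.21% ± 0.183 in polyps and 1.54% ± 0.146 in surrounding tissue (SD, n = 3). It does not depend on how libraries were scaled to each other, and it is given without a test because the genes were grouped after their values were seen. Gcnt3 still held 82.1% ± 1.50 of the summed level of the 5 Gcnt genes in polyps and 92.5% ± 2.66 in surrounding tissue.

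Among the other genes of core formation and branching, Gcnt2, the gene of the I-branching enzyme, had 32.4, 34.6 and 41.0 CPM in polyps and 25.2, 9.19 and 29.5 CPM in surrounding tissue. Its groups did not overlap but the test was not passed (log2 fold change 0.91 ± 0.31, adjusted p = 0.204). The log2 difference of Gcnt2 was 1.89 in mouse 1192 and 0.36 and 0.47 in mice 1119 and 1199. B3gnt6, the core 3 synthase gene, was low at 2.63 ± 2.13 CPM in polyps and 1.57 ± 0.998 CPM in surrounding tissue and went both ways among the mice. Gcnt7 had 0.478 ± 0.634 and 1.86 ± 1.04 CPM in polyps and surrounding tissue (adjusted p = 0.457). C1galt1, the core 1 synthase gene, had 111.5 ± 18.5 CPM in polyps and 73.5 ± 19.2 CPM in surrounding tissue and was higher in 3 of 3 mice without passing (log2 fold change 0.62 ± 0.17, adjusted p = 0.108). Its adjusted p ran from 0.0102 without a filter on low counts to 0.431 without mouse 1119. C1galt1c1, the gene of the chaperone that C1galt1 needs for folding, was nearly level at 12.4 ± 1.84 CPM in polyps and 11.3 ± 1.51 CPM in surrounding tissue (log2 fold change 0.13 ± 0.28, adjusted p = 0.877).

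**Figure D2:**
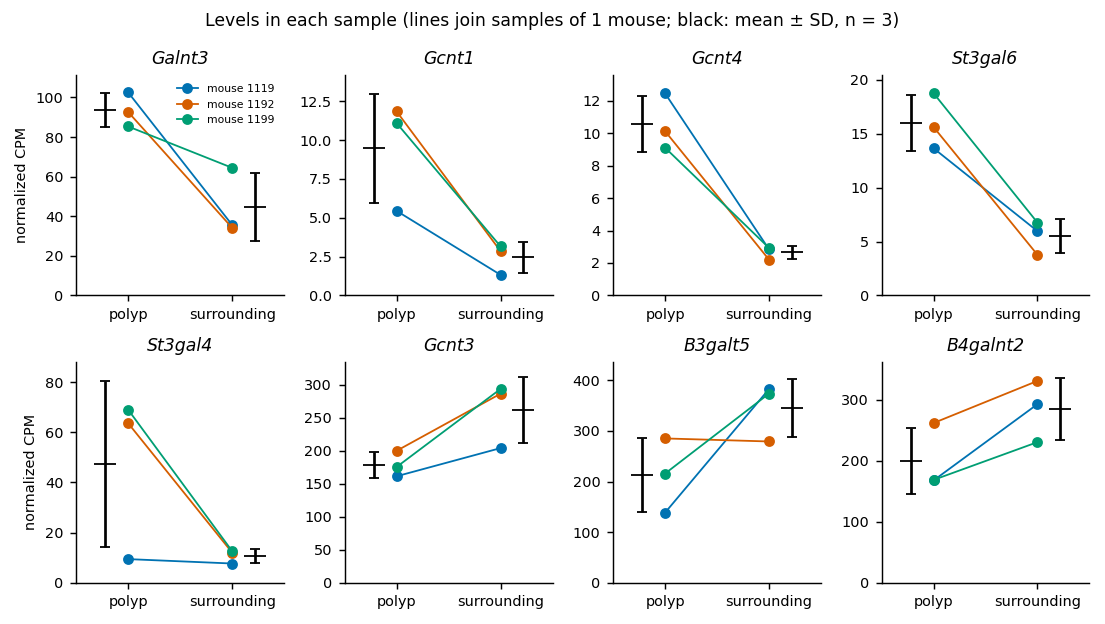
Normalized CPM of 8 glycosyltransferase genes in each polyp and in the surrounding cecum, with lines joining the samples of 1 mouse and black marks for mean ± SD (n = 3). The polyps lie above all surrounding samples for Galnt3, Gcnt1, Gcnt4 and St3gal6 and below them for Gcnt3, and the polyp of mouse 1119 stays near surrounding levels for St3gal4.

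The Galnt genes initiate O-glycans, and 1 of the 9 tested rose. Galnt3 (ENSMUSG00000026994), whose human counterpart is known for protecting the phosphate hormone FGF23 from cleavage, had 102.5, 92.6 and 85.3 CPM in the polyps of mice 1119, 1192 and 1199, against 35.6, 34.2 and 64.5 CPM in surrounding tissue. The groups did not overlap, and the gap was smallest in mouse 1199, whose surrounding sample was the highest. Galnt3 averaged 93.5 ± 8.63 CPM in polyps and 44.8 ± 17.1 CPM in surrounding tissue (log2 fold change 1.13 ± 0.23, adjusted p = 0.0393). Without mouse 1119 or mouse 1192 it missed the threshold (log2 fold changes 0.93 and 0.93, adjusted p = 0.172 and 0.121), as it did without the pairing (0.0869) and without robust spread estimates (0.0551).

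Galnt10, which prefers peptides that already carry a sugar, had 36.6, 39.1 and 29.1 CPM in polyps and 19.2, 25.1 and 18.9 CPM in surrounding tissue (log2 fold change 0.73 ± 0.19, adjusted p = 0.0919). Galnt1, a broadly expressed initiator, had 80.2, 90.2 and 117.9 CPM in polyps and 53.7, 65.2 and 75.7 CPM in surrounding tissue (log2 fold change 0.56 ± 0.14, adjusted p = 0.088). Neither gene passed, although in both the polyps were above all surrounding samples. Both passed as higher only without a filter on low counts (adjusted p = 0.031 and 0.033), and over the alternatives their adjusted p reached 0.398 and 0.43. Galnt4 and Galnt7 had log2 fold changes of 0.13 ± 0.18 and 0.17 ± 0.18 and did not pass. Galnt6 was at 0.14 ± 0.16. The goblet cell initiator gene Galnt12 was at -0.18 ± 0.21, with 19.7 ± 1.94 CPM in polyps and 22.1 ± 2.84 CPM in surrounding tissue. Galnt5 and Galnt11 were below 7 CPM in each sample. Galnt3 made up 20.7%, 19.7% and 18.0% of the summed level per kb of the 11 Galnt genes in polyps and 10.8%, 8.54% and 15.6% in surrounding tissue. This share is given without a test because Galnt3 is the Galnt gene that passed. The summed level of the 11 was 109.7 ± 3.25 CPM per kb in polyps and 87.2 ± 10.1 in surrounding tissue.

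Sialyltransferases cap chains with sialic acid, and 1 of the 10 tested rose. St3gal6 (ENSMUSG00000022747), an enzyme gene for alpha2,3-linked sialic acid on type 2 chains, had 13.7, 15.6 and 18.8 CPM in the polyps of mice 1119, 1192 and 1199, against 5.97, 3.77 and 6.76 CPM in surrounding tissue. Every polyp was above every surrounding sample. The mean was 16.0 ± 2.58 CPM in polyps and 5.50 ± 1.55 CPM in surrounding tissue (log2 fold change 1.57 ± 0.31, adjusted p = 0.0358). The adjusted p of St3gal6 was 0.106, 0.0681 and 0.227 with mouse 1119, 1192 or 1199 left out in turn, at log2 fold changes of 1.76, 1.28 and 1.60, and 0.058 unpaired.

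St3gal4, whose product has a like specificity and acts with that of St3gal6 in making selectin ligands, split the mice. It had 9.43, 63.6 and 69.0 CPM in the polyps of mice 1119, 1192 and 1199, against 7.67, 12.03 and 12.6 CPM in surrounding tissue. The polyp of mouse 1119 lay below the surrounding samples of the other mice, while the polyps of mice 1192 and 1199 lay far above all surrounding samples. The log2 differences of St3gal4 were 0.29, 2.38 and 2.43, and the test over 3 mice was not passed (1.78 ± 0.42, adjusted p = 0.0863). Without mouse 1119 it was (log2 fold change 2.42, adjusted p = 0.00328), and DESeq2 and limma-voom called it over all 3 mice (adjusted p = 0.000281 and 0.0128), as did the test without a filter on low counts, while it ran up to 0.384 without mouse 1199. St3gal4 and St3gal6 together made up 36.1%, 79.0% and 78.7% of the summed level per kb of the 6 St3gal genes in the polyps of mice 1119, 1192 and 1199, against 28.7%, 45.5% and 38.9% in surrounding tissue. This share is given without a test because St3gal4 and St3gal6 had the largest fold changes of the St3gal genes.

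St6galnac6, an alpha2,6-sialyltransferase gene, was the most abundant sialyltransferase gene per kb, at 32.8 ± 5.36 CPM per kb in polyps and 29.9 ± 5.79 in surrounding tissue. It did not pass (log2 fold change 0.14 ± 0.16, adjusted p = 0.756). St3gal1, which caps core 1, had 21.5 ± 6.64 CPM in polyps and 24.4 ± 8.44 CPM in surrounding tissue (adjusted p = 0.749). St3gal3 was at 8.57 ± 2.83 CPM in polyps and 5.88 ± 4.12 CPM in surrounding tissue, with opposite signs among the mice. St6gal1, the N-glycan enzyme gene, had 0.967, 2.80 and 2.56 CPM in polyps and 3.13, 5.77 and 3.16 CPM in surrounding tissue. All 3 polyps were below all surrounding samples, at a level where the test was not passed (log2 fold change -1.002 ± 0.59, adjusted p = 0.511). St6galnac4 had a log2 fold change of -0.75 ± 0.47 and St6galnac2 of 0.35 ± 0.36, and neither passed. St3gal5, the gene of GM3 ganglioside synthesis, and St3gal2 were at -0.38 ± 0.49 and -0.85 ± 1.23 and did not pass either.

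**Figure D3:**
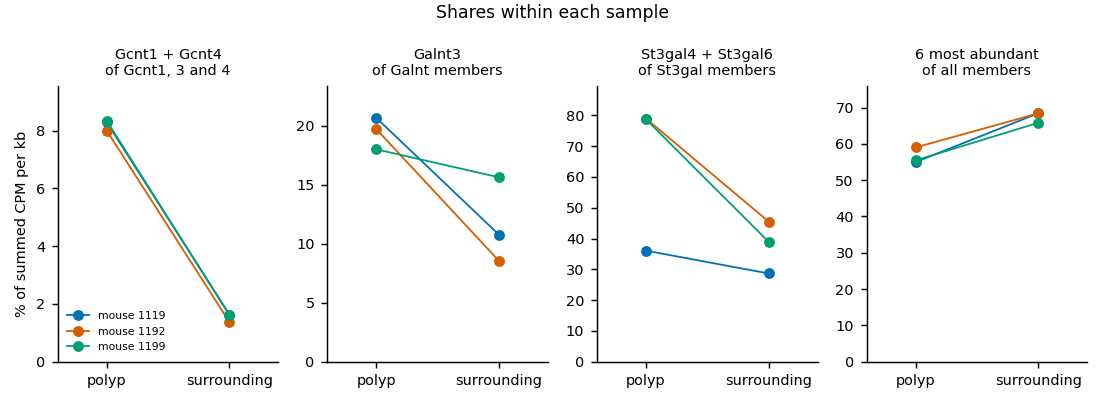
Shares of summed CPM per kb within each sample, in percent, for 4 sets of glycosyltransferase genes, with lines joining the samples of 1 mouse. The share of Gcnt1 and Gcnt4 is near 8% in the 3 polyps and between 1.37% and 1.63% in surrounding tissue, while the share of St3gal4 and St3gal6 is highest in the polyps of mice 1192 and 1199.

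Of the 6 most abundant genes of the group, the top 3 had negative fold changes and the next 3 positive ones, and none passed the test. Per kb, the order over all samples began with B4galnt2, Gcnt3, B3galt5, B3gnt3, St6galnac6 and B4galt1. B4galnt2 (ENSMUSG00000013418), whose product adds the terminal N-acetylgalactosamine of the Sda antigen, had 115.7 ± 31.4 CPM per kb in polyps and 165.2 ± 29.4 in surrounding tissue. B3gnt3, St6galnac6 and B4galt1 differed from each other by less than their spread in both tissues. The 6 genes held 54.97%, 59.0% and 55.5% of the summed level per kb of all 54 genes in the polyps of mice 1119, 1192 and 1199, against 68.4%, 68.4% and 65.8% in surrounding tissue. The summed level itself was 519 ± 43.7 CPM per kb in polyps and 552 ± 6.16 in surrounding tissue.

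B4galnt2 had 167.6, 261.7 and 168.5 CPM in the polyps of mice 1119, 1192 and 1199, against 292.6, 330.7 and 230.4 CPM in surrounding tissue. It was lower in each mouse, with overlapping groups, and did not pass (log2 fold change -0.53 ± 0.15, adjusted p = 0.113). B4galnt2 passed as lower with DESeq2 and without a filter on low counts (adjusted p = 0.0354 and 0.0291). B3galt5, the gene of the galactosyltransferase for type 1 chains, had 138.5, 285.1 and 215.7 CPM in polyps and 382.6, 279.1 and 373.7 CPM in surrounding tissue. The difference was -1.46 in mouse 1119 and -0.79 in mouse 1199 on the log2 scale but 0.03 in mouse 1192 (log2 fold change -0.74 ± 0.26, adjusted p = 0.219). Without mouse 1192, B3galt5 fell by 1.17 on the log2 scale (adjusted p = 0.0209), and over the alternatives its adjusted p ran from 0.000399 to 0.601. B4galnt3 had 5.67 ± 1.79 CPM in polyps and 10.7 ± 3.08 CPM in surrounding tissue, lower in 3 of 3 mice (log2 fold change -0.90 ± 0.34, adjusted p = 0.263). B4galnt1, the gene of GM2 and GD2 ganglioside synthesis, and B4galnt4 had log2 fold changes of 0.17 ± 0.25 and -0.54 ± 1.06 and did not pass.

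Of the galactosyl- and N-acetylglucosaminyltransferase genes that extend chains, none of the 13 tested passed. B4galt1, the main gene of N-acetyllactosamine synthesis, had 138 ± 30.7 CPM in polyps and 121 ± 21.1 CPM in surrounding tissue (adjusted p = 0.662). B4galt6 was higher in each of 3 mice (log2 fold change 0.39 ± 0.14, adjusted p = 0.237). B3gnt3, which extends core 1, was at 111 ± 12.5 CPM in polyps and 97.9 ± 21.0 CPM in surrounding tissue (log2 fold change 0.20 ± 0.14, adjusted p = 0.594). B3gnt2, the polylactosamine enzyme gene, had 1.57, 3.37 and 2.70 CPM in polyps and 1.23, 1.07 and 0.451 CPM in surrounding tissue. The groups did not overlap, at a depth of 2 to 41 counts per library, and the test was not passed (adjusted p = 0.545). Other gene models, on either strand, overlap 66% of the exonic bases of B3gnt2 and 90% of those of Galnt2 in GENCODE M21, so the counts of both are uncertain. The 0 counts of B3gnt4 are uncertain too, as Diablo, on the opposite strand, overlaps 93.2% of its exonic bases. B3gnt5 and B3gnt7 were below 7 CPM in each sample and changed sign among the mice. B4galt5 had a log2 fold change of -0.56 ± 0.40, with -1.80 in mouse 1192 and values near 0 in the other mice.

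None of the 4 fucosyltransferase genes passed. Fut2, the secretor gene of the colon, which makes alpha1,2-fucose, had 7.50, 14.9 and 19.8 CPM in the polyps of mice 1119, 1192 and 1199, against 83.2, 13.8 and 25.5 CPM in surrounding tissue. The surrounding sample of mouse 1119 was the highest of all, and mice 1192 and 1199 had log2 differences of 0.11 and -0.36, against -3.44 in mouse 1119. Over 3 mice the log2 fold change was -1.16 ± 0.83 (adjusted p = 0.629). Fut8, which adds the core fucose of N-glycans, was at 27.2 ± 7.13 CPM in polyps and 24.3 ± 5.24 CPM in surrounding tissue (adjusted p = 0.779). Fut4 and Fut11 were below 5 CPM in each sample.

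**Figure D4:**
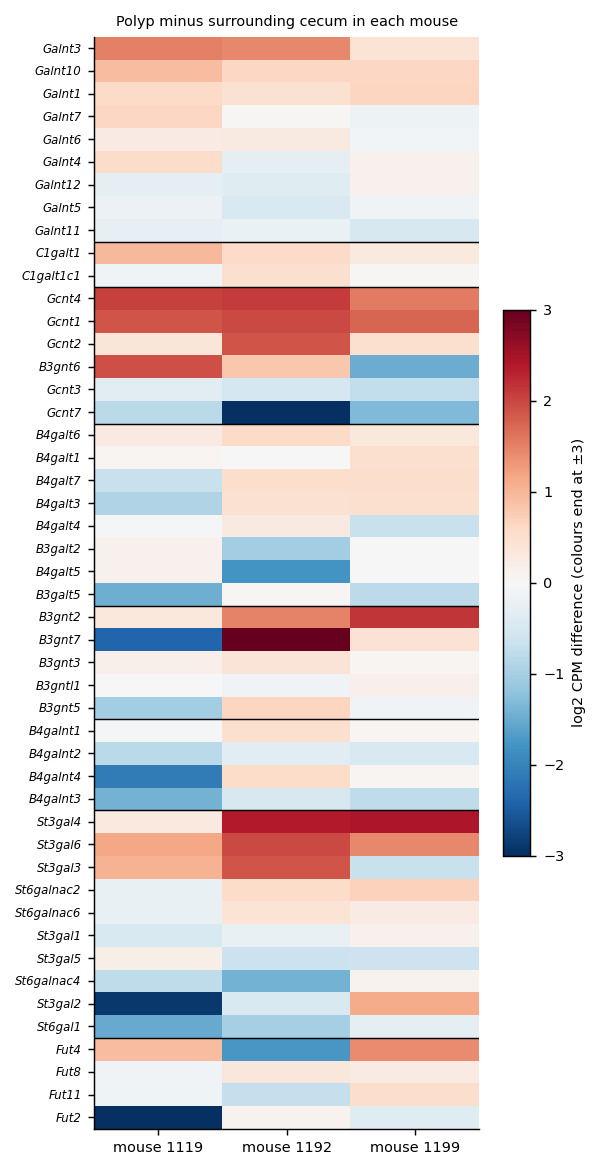
Difference in log2 CPM, polyp minus surrounding cecum, in each of the 3 mice for the 48 tested glycosyltransferase genes, in the order of roles with lines between them. Gcnt4, Gcnt1 and St3gal6 are red in all 3 mice, St3gal4 is near 0 in mouse 1119, and Fut2 is deep blue in mouse 1119 alone. Differences beyond 3 in either direction share the end colours.

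The promoters of the 4 genes that rose are shown because these were the genes called, and a shared regulator was not tested. RefSeq windows of GRCm38.p6, each of 300 bases around a transcript start, were found for 41 of the 54 genes. Motifs were searched on both strands. They were a loose AP-1 pattern, TGANTCA with any base at N, the ETS factor motif CCGGAA, the GC box written as GGGCGG and the TATA box written as TATAAA. Capitals mark the matches, neighbouring GC boxes may overlap, and for genes with several starts the most upstream window is given.
Galnt3, chr2:66124744-66125043, minus strand: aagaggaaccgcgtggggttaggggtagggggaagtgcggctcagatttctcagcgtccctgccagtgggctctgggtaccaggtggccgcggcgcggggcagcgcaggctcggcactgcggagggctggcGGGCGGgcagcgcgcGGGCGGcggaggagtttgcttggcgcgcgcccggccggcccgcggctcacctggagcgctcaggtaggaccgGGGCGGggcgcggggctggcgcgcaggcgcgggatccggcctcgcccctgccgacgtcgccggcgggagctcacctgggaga
Gcnt1, chr19:17372795-17373094, minus strand: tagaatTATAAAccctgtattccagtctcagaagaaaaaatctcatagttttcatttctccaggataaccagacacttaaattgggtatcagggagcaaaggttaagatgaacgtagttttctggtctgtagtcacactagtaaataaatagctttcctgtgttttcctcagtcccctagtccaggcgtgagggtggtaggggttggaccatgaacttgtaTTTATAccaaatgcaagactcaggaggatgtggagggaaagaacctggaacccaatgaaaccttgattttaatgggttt
Gcnt4, chr13:96924094-96924393, plus strand: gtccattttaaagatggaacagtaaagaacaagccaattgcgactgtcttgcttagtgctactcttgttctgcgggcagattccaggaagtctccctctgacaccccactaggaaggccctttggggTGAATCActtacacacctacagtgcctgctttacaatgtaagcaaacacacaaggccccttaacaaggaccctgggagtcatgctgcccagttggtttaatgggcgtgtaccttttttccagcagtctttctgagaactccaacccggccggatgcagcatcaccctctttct
St3gal6, chr16:58524204-58524503, minus strand: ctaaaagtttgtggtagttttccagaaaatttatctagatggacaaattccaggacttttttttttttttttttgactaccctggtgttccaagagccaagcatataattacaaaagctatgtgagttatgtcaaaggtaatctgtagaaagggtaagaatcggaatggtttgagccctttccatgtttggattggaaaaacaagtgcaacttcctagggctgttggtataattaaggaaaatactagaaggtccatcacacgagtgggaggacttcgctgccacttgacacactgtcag
The window of Galnt3 was 76.7% G and C with 3 GC boxes. The most upstream windows of Gcnt1, Gcnt4 and St3gal6 were 40.7%, 49.7% and 38.7% G and C. The median was 52.7% over 32851 windows of all genes and 59.7% over the 57 windows of the glycosyltransferase genes. Gcnt1 has 3 annotated starts and Gcnt4 and St3gal6 have 2 each, and the downstream windows of St3gal6 and Gcnt4 hold 5 and 2 GC boxes. The downstream windows were 58.7% and 52% G and C for Gcnt1, 62.7% for Gcnt4 and 64.7% for St3gal6. Which start was used was not tested. The loose AP-1 pattern was in the upstream Gcnt4 window alone among the 8 windows of these genes, as TGAATCA, and in 7.81% of all windows with any base at N. The GC box was in 35.7% of all windows and in 52.6% of the 57 windows of the glycosyltransferase genes. TATAAA was in 13.6% of all windows and in 1.75% of the 57, where the 1 window is that of Gcnt1. The ETS letters were in 14.9% of all windows and 15.8% of the 57. No 1 of the 4 motifs was in all 4 windows shown. A match says only that the letters are there.

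**Figure D5:**
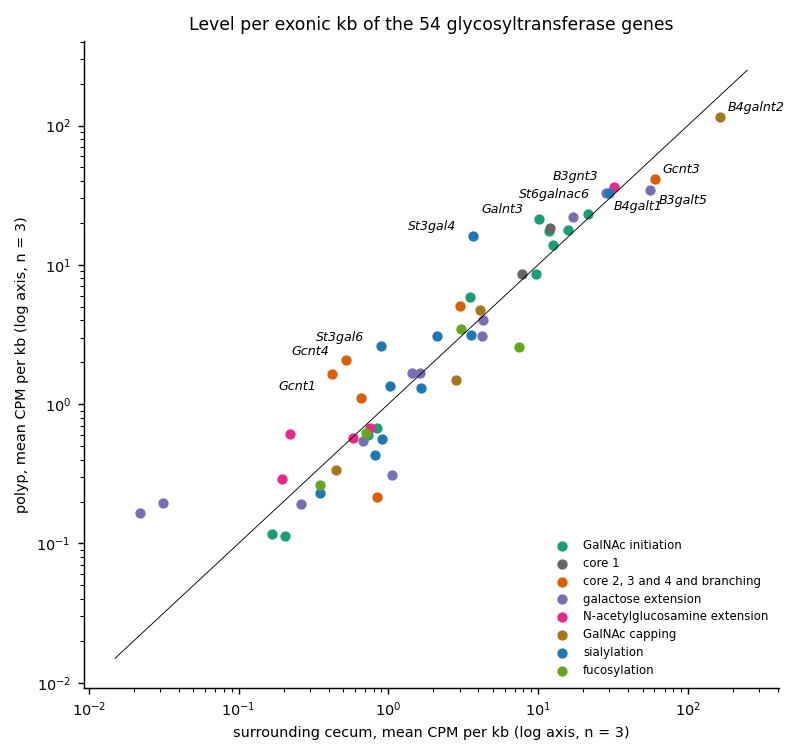
Mean level of the 54 glycosyltransferase genes in polyps (vertical) and surrounding cecum (horizontal), in CPM per kb of exonic length on log axes (n = 3 mice each), with a line of equality and colours for roles. Gcnt1, Gcnt4, St3gal6 and St3gal4 lie above the line at low to middle levels, and B4galnt2, Gcnt3 and B3galt5 lie below it at the highest levels.

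Of 29 tested genes of nucleotide sugar supply and transport, 0 were called in either direction, at a median log2 fold change of 0.11 and with 2.76% of all genes called. Gmds, the first enzyme gene of GDP-fucose synthesis, had the smallest p there, with 116.3 ± 12.4 CPM in polyps and 75.0 ± 17.7 CPM in surrounding tissue (log2 fold change 0.66 ± 0.20, adjusted p = 0.146). Of 19 tested N-glycan branching and processing genes, 1 rose, Mgat4a, a branching N-acetylglucosaminyltransferase gene, with 329 ± 55.4 CPM in polyps and 182.5 ± 38.7 CPM in surrounding tissue (log2 fold change 0.86 ± 0.17, adjusted p = 0.0395). None of 14 tested glycan degradation genes and none of 6 other sialyl- and N-acetylgalactosaminyltransferase genes passed. Of 5 tested mucin genes 0 passed. Muc2 (ENSMUSG00000025515), the gene of the gel-forming mucin of goblet cells, had 728, 1132 and 824 CPM in the polyps of mice 1119, 1192 and 1199, against 964, 1228 and 998 CPM in surrounding tissue. It was lower in 3 of 3 mice without passing (log2 fold change -0.27 ± 0.14, adjusted p = 0.456).

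Some lists of cell type markers held called genes and others held none, beside 1.72% of all genes tested called higher in polyps and 1.04% lower. Goblet cell markers summed to 1608 to 2992 CPM in polyps and 3020 to 3844 CPM in surrounding tissue, and 3 of 18 fell, Clca1, Zg16 and Fcgbp. Absorptive colonocyte markers summed to 7595 to 11500.0 CPM in polyps and 10390.0 to 15340.0 CPM in surrounding tissue, and 6 of 21 tested fell. General epithelial markers summed to 6755 to 8497 CPM in polyps and 4455 to 6773 CPM in surrounding tissue, and 3 of 18 rose, Krt8, Krt18 and Krt19. The 18 went both ways, with 11 positive and 7 negative fold changes and a median log2 fold change of 0.13. Krt8 weighed heavily in the sum, with a mean of 2189 CPM in polyps and 1359 CPM in surrounding tissue. Fibroblast markers summed to 372 to 848 CPM in polyps and 120.3 to 246 CPM in surrounding tissue, and 7 of 16 rose. Smooth muscle markers summed to 277.5 to 369.8 CPM in polyps and 498 to 576 CPM in surrounding tissue, and 2 of 14 tested fell. Endothelial markers summed to 24.0 to 59.3 CPM in polyps and 11.2 to 22.8 CPM in surrounding tissue with 0 of 8 tested called. Tuft cell markers summed to 46.79 to 70.36 CPM in polyps and 46.41 to 97.05 CPM in surrounding tissue with 0 of 8 tested called. Of these 8, 3 had positive and 5 negative fold changes. Dclk1 had the smallest p, with 2.19 ± 1.69 CPM in polyps and 9.06 ± 3.04 CPM in surrounding tissue. It was lower in 3 of 3 mice without passing (log2 fold change -2.24 ± 0.56, adjusted p = 0.0863). B and plasma cell markers summed to 182 to 200 CPM in polyps and 135 to 399 CPM in surrounding tissue with 0 of 4 tested called and Tnfrsf17 at 0 in every library. Most of this sum was Sdc1, Xbp1 and Cd74 in each sample, so it does not read the rest of the list. Sdc1 had 126 ± 13.0 CPM in polyps and 84.4 ± 13.8 CPM in surrounding tissue, and Cd74 had 28.4 ± 6.40 and 123.6 ± 128.4 CPM. Leukocytes also express Gcnt1 and St3gal genes. Neutrophil markers summed to 48.1 to 91.0 CPM in polyps and 3.77 to 30.4 CPM in surrounding tissue, with 0 of 5 tested called and Camp at 0 in every library. Macrophage and monocyte markers summed to 60.3 to 76.8 CPM in polyps and 35.4 to 60.2 CPM in surrounding tissue with 0 of 11 called, and T cell markers to 2.88 to 4.84 CPM in polyps and 5.98 to 14.7 CPM in surrounding tissue with 0 of 2 called. The part of these cells in the glycosyltransferase levels was not tested.

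The sources used here do not say whether counting was by strand. Exons of St3gal6 overlap those of Dcbld2, on the opposite strand, over 26.0% of their bases in GENCODE M21. Dcbld2 itself had 1.89 ± 1.35 CPM in polyps and 2.31 ± 0.715 CPM in surrounding tissue (log2 fold change -0.58 ± 0.84, adjusted p = 0.813). The exons of Gcnt1 and Galnt3 overlap no other gene there, and those of Gcnt4 overlap an antisense model over 10.5% of their bases. Of the 14 tested glycosyltransferase genes with an unadjusted p under 0.05 in the edgeR test, 6 have exonic overlaps. Besides St3gal6 and Gcnt4 they are B4galnt2 (15.3% of bases), St3gal4 (14.1%), Gcnt2 (11.0%) and B4galnt3 (4.47%), all with opposite-strand models.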

How the data were processed

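RNA was taken from a serrated polyp and the surrounding cecum of 3 mice. Per the labels' protocols, mammalian RNA was depleted with the MICROBEnrich kit and bacterial rRNA with a RiboZero kit before paired-end Illumina libraries were made. If the mouse counts come from this RNA, they cover what remained. The authors deposited raw read counts per Ensembl gene, 1 table per sample, not normalized, judging by their whole numbers. The submitters' processing notes list HTSeq 0.5.3p9, Bowtie 0.12.9 and TopHat2 2.0.7. Settings, build, annotation and strand handling: not given in the sources used here. Library totals were 6632645 to 13350119 counts.

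Gene symbols (32919 of 37991 identifiers), exonic lengths and overlaps came from GENCODE M21, whose release may differ from the authors', so levels per kb are approximate. Genes were tested with edgeR 4.0.16 in R 4.3.3 by its quasi-likelihood test (robust spread, TMM normalization, filterByExpr at a minimum count of 10, leaving 10960 genes) with the mouse as a block and Benjamini-Hochberg adjustment over all genes tested. The standard error is the log2 fold change divided by the root of the F statistic. The test had 2 residual degrees of freedom before prior information was added, and its biological coefficient of variation was 34.3%. The mouse number in each title pairs the samples. Deviations from tissue means correlated at 0.0719, 0.127 and 0.159 within mice and at -0.12 to -0.00294 between mice. Differences per mouse are of log2 CPM with a prior count of 2. The procedure was also run on simulated counts, and the outcome of that run is not given here.

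Members, roles and lists were chosen with earlier results of these data known, so list counts are descriptions. Genes named were those called, the 4 with the smallest p in each role, the 6 most abundant per kb, C1galt1, C1galt1c1, Muc2 and up to 3 genes of each related list. Other genes, such as those at the count minimum, were chosen after their values were seen. Alternatives were no block, RLE and upper-quartile normalization, genes above 1% of a library left out, no filter, a mean of at least 5 CPM, spread without robustness, DESeq2 1.42.0, limma-voom (limma 3.58.1) and leaving out each mouse. A detection floor of 3 counts, 0.225 to 0.452 CPM over raw totals, covers counting error only, as the labels mention no molecular identifiers. It is not on the scale of the normalized levels, where 3 counts in the surrounding sample of mouse 1199 are 0.676 CPM. Python 3.11.15 was used for tables and plots.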

Additional observations from a re-analysis of the deposited data

How the results depend on the processing

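Over the fits that left out 1 mouse, 1 glycosyltransferase gene each was called higher and 0 to 1 lower, against 4 and 0 with all mice, and 83 to 281 of all genes were called, against 303. Without the pairing by mouse (no replicate block), 1 glycosyltransferase gene was called higher and 87 of all genes were called. Without a filter on low counts 9 were called higher and 3 lower and 753 of all genes, a mean of at least 5 CPM gave 1 lower, and DESeq2 gave 3 lower and 541 of all genes. The cause was not tested. Under RLE and upper-quartile normalization, with genes above 1% of a library left out, and with DESeq2, limma-voom and both other filters, the same 4 genes were among those called higher. Spread without robustness left out Galnt3. DESeq2 and limma-voom also called St3gal4 higher. The median log2 fold change of the tested glycosyltransferase genes ran from 0.10 to 0.14 over settings with all mice and from 0.02 to 0.23 with a mouse left out. Over all named genes and alternatives, 318 values kept direction and call, 16 gained a call, 14 lost one and 13 reversed, none of the reversals in a called gene. Ranges of log2 fold changes with a mouse left out were -0.71 to 0.30 for B3gnt5, -1.22 to 2.89 for B3gnt7, -0.041 to 0.279 for B4galnt1, -0.85 to 0.38 for B4galnt4, -0.936 to 0.035 for B4galt5, -0.10 to 0.26 for C1galt1c1, -0.46 to 0.14 for Fut11, -0.49 to -0.35 for Fut4, -0.06 to 0.31 for Galnt7 and -0.036 to 0.316 for St6galnac6. Fut4 was also at -0.50 without the replicate block and -1.25 with limma-voom. With a mouse left out, the log2 fold changes of Gcnt4, Gcnt1, St3gal6 and Galnt3 ran from 1.87 to 2.14, 1.88 to 2.02, 1.28 to 1.76 and 0.93 to 1.46.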
